A study of Homo sapiens with 12 samples.

Results

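The clustered protocadherin genes were described through 3 histone modifications in HepG2 cells. The interval was the stretch of chromosome 5 from 140150000 to 140900000 (GRCh37, counted from 1), which holds the alpha, beta and gamma clusters. Every peak of the 3 pooled lists with at least 1 bp in the interval was taken, which gave 54 of 273822 peaks: 23 of 24481 for H3K4me3, 11 of 66586 for H3K27ac and 20 of 182755 for H3K4me1. The choice used position and no measured value. The alpha cluster was read as ending at 140400000, the beta cluster as running from 140430000 to 140630000 and the gamma cluster as starting at 140710000. A peak was placed by its summit, the base that the list gives as its highest point. The H3K27ac peak whose summit lay past the right end was grouped with gamma, but left out of the count of summits in gamma.

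HepG2 cells are a long-established human line derived from a liver carcinoma, grown here without treatment. Chromatin was fixed and sheared, and DNA carrying a given histone modification was recovered with an antibody and sequenced (ChIP-seq). There were 12 libraries, 3 each for H3K27ac, H3K4me1, H3K4me3 and a control, whose titles call it input while its antibody label is an anti-mouse IgG. One list per mark was analysed, with the 3 libraries of the mark pooled, going by its name. No value of a single library or of the control was analysed here, so the depth behind each peak and the spread between libraries are unknown, no difference was tested, and every comparison below describes these pooled lists.

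Clustered protocadherins are cell adhesion proteins, best known from neurons, where each cell uses its own combination of them and the proteins bind their like on other cells. In the alpha and gamma clusters, each variable exon has a promoter of its own and is spliced to exons that all members of that cluster share. The beta genes have no shared exons. Most of the promoters carry a conserved element with the letters CGCT, to which the insulator protein CTCF can bind. H3K4me3 marks promoters, H3K27ac marks active promoters and enhancers, and H3K4me1 marks enhancers and the flanks of promoters.

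The RefSeq annotation of GRCh38.p14 names 15 coding alpha genes (PCDHA1 first, PCDHAC2 last), 16 coding beta genes (PCDHB1 first, PCDHB15 last) and 22 coding gamma genes (PCDHGA1 first, PCDHGC5 last). SLC25A2, a mitochondrial carrier, and TAF7, a subunit of the general transcription factor TFIID, are the coding genes between beta and gamma. DIAPH1, an actin regulator, is the next coding gene after gamma. The peaks are on another build, so only names and order were taken from this annotation, and no peak was assigned to a gene.

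A stretch around a motif with the letters CGCT is given for 3 genes of each cluster, to let the promoters within a cluster be compared with each other and with those of the other clusters. Promoters were those of RefSeq (GRCh38.p14), from 250 bases before to 50 after each gene start, and 13 alpha, 14 beta and 20 gamma genes had one, all on the plus strand. The 3 motifs were picked after these sequences had been read, and each contains CGCT. The genes shown are the first 3 of each cluster whose promoter holds the motif. Capitals mark the motif, with 25 bases on either side, 5′ to 3′ on the plus strand. The alpha stretches lie at chr5:140786072-140786130, chr5:140794767-140794825 and chr5:140806965-140807023 of GRCh38, in the order given.
PCDHA1: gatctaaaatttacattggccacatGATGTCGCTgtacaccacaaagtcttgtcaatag
PCDHA2: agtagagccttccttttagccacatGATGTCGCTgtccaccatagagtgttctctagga
PCDHA4: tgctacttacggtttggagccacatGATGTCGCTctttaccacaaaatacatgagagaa
The beta stretches lie at chr5:141094530-141094588, chr5:141100379-141100437 and chr5:141121709-141121767.
PCDHB2: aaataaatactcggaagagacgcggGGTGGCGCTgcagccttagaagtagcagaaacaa
PCDHB3: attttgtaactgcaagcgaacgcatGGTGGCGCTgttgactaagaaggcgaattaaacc
PCDHB4: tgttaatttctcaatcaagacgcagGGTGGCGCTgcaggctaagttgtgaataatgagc
The gamma stretches lie at chr5:141330390-141330448, chr5:141350012-141350070 and chr5:141382636-141382694.
PCDHGA1: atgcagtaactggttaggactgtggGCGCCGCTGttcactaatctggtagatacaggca
PCDHGB1: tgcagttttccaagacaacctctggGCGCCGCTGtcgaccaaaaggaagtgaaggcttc
PCDHGA7: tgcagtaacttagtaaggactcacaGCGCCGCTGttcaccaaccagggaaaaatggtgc

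Each motif was searched on both strands. A cluster gene counted if any of its promoters held the motif, and the 20 gamma genes had 25 promoters. In the share of all RefSeq promoters, each promoter counted separately. The alpha motif GATGTCGCT was in the promoters of 9 of 13 alpha genes, of 0 beta and 0 gamma genes, and in 37 of all 35116 RefSeq promoters (0.105%). The beta motif GGTGGCGCT was in 13 of 14 beta genes, in 0 alpha and 0 gamma genes, and in 0.501% of all promoters. The gamma motif GCGCCGCTG was in 10 of 20 gamma genes, in 0 alpha and 0 beta genes, and in 1.28% of all promoters. Since the motifs were read off these promoters, the counts describe them and test nothing. The letters CGCT alone were in 12 of 13 alpha, 14 of 14 beta and 20 of 20 gamma genes, but also in 70% of all promoters.

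H3K4me3 was the most frequent mark of the interval, whereas it had the fewest peaks of the 3 whole lists. It had 6 peaks in alpha, 8 in beta and 7 in gamma, and 2 in the stretch between beta and gamma. There were therefore fewer H3K4me3 peaks than coding genes in each cluster. The stretch between alpha and beta held no peak of any mark. The authors' signal value, which ranks peaks within a list, ranged from 2.04 to 36.9 over the 23 peaks with a median of 8.65, against a median of 13.3 in the whole H3K4me3 list.

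**Figure D1:**
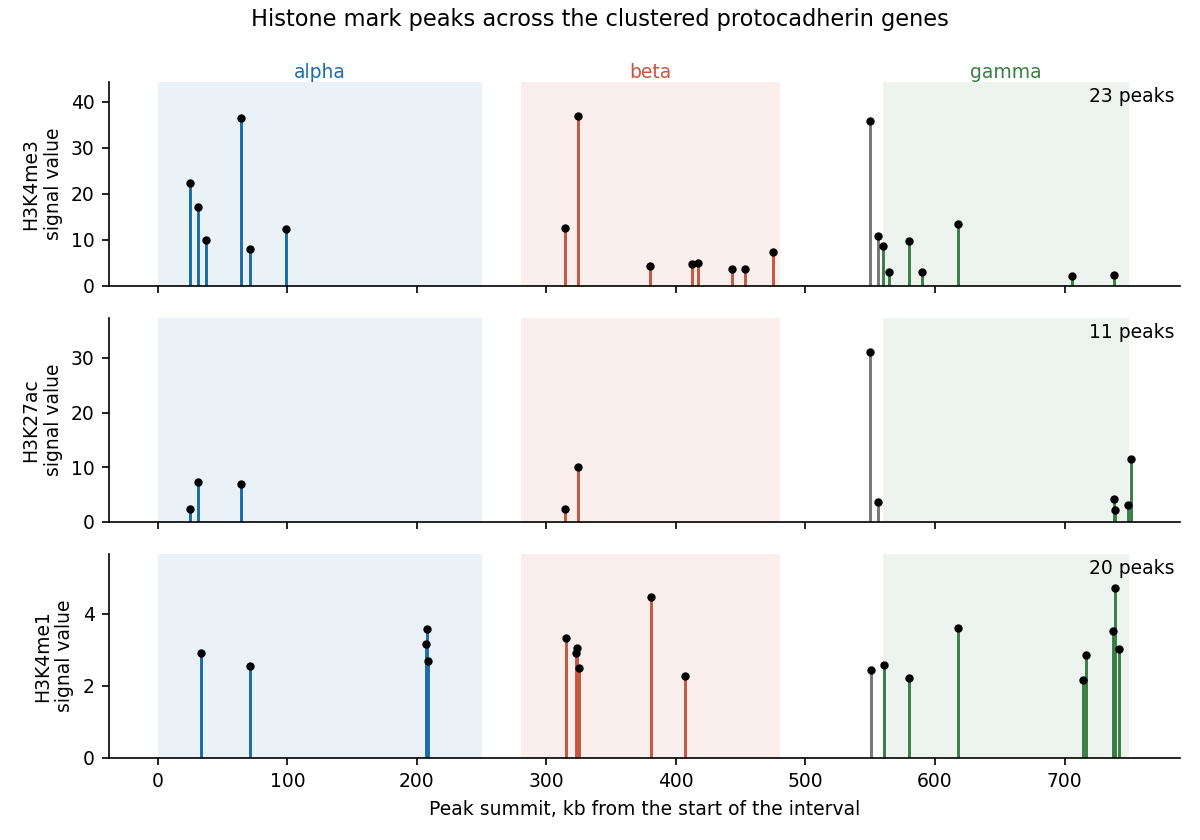
Signal value of each peak (vertical axis, 1 scale per mark) at its summit, in kb from the start of the interval, for H3K4me3 (23 peaks), H3K27ac (11) and H3K4me1 (20). Shading and line colour mark the alpha, beta and gamma clusters, and grey lines are peaks between beta and gamma. H3K4me3 peaks are spread over the 3 clusters, whereas most of them have no H3K27ac peak at their place.

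In alpha the 6 H3K4me3 peaks lay together in the first part of the cluster. From the left, the first peak ran from 140174269 to 140175221 with a signal value of 22.2, and the second from 140180519 to 140181389 with 17.1. The third, from 140186475 to 140187225, had a signal value of 9.96. After a gap came the strongest alpha peak, from 140213356 to 140214478, at 36.4, which was higher than 69.0% of the whole list. The last were a peak from 140220734 to 140221370 at 8.00 and a peak from 140248444 to 140249215 at 12.4. From there, 215 kb passed without an H3K4me3 peak up to the first beta peak. PCDHAC1 and PCDHAC2 come last among the alpha genes in the annotation, but which genes this stretch holds was not analysed here.

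Beta held 2 stronger peaks on its left and 6 weaker ones after them. The first ran from 140464092 to 140465007 with a signal value of 12.4. The second, from 140474001 to 140475235, was the strongest H3K4me3 peak of the interval at 36.9, a value above that of 69.5% of the list. After 54.4 kb without a peak of any mark, 3 followed at 140529661 to 140530462 (4.30), 140561941 to 140562495 (4.66) and 140566701 to 140567166 (4.91). The remaining 3 lay at 140593381 to 140593790 (3.66), 140602863 to 140603439 (3.68) and 140624828 to 140625861 (7.26). The 6 weaker peaks thus spanned 3.66 to 7.26, all under the value of the first beta peak.

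The stretch between beta and gamma, which holds SLC25A2 and TAF7 in the gene order, had 2 H3K4me3 peaks close to its right end. The first, from 140699367 to 140701179, had a signal value of 35.8 and was the widest of the 23 at 1813 bp. The second, from 140705659 to 140706450, had a signal value of 10.8. Whether they belong to these genes was not analysed here.

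Gamma peaks were weaker, with a median signal value of 3.07, against 14.7 in alpha and 4.78 in beta. The first, from 140709932 to 140710612 at 8.65, straddled the start of the cluster as read here. The next were at 140714076 to 140714548 (3.07), 140729527 to 140730410 (9.73) and 140739532 to 140739919 (3.06). The strongest gamma peak lay from 140767107 to 140768030 at 13.4 and was followed by 87.5 kb without H3K4me3. The last 2, from 140855560 to 140855933 (2.04) and from 140888152 to 140888677 (2.32), were the weakest of the interval. The signal values of the clusters overlapped, since the strongest gamma peak, at 13.4, exceeded 3 of the 6 alpha peaks and 7 of the 8 beta peaks.

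Most of the H3K4me3 peaks were narrow for their strength. Their median width was 772 bp, against 1535 bp in the whole list. Compared with the peaks of the list whose signal value lay within 10% of their own, 22 of 23 were narrower than the median (95.7%, against 49.6% of the whole list) and 19 of 23 (82.6%) were among the narrowest 25%, against 24.7% of the list. The strongest alpha peak was 1123 bp wide, against a median of 2582 bp for 1858 list peaks of like signal, of which 0.592% were narrower. The strongest beta peak, 1235 bp, stood against 2598 bp, with 0.843% narrower. Under 50% of the median width were 3 of the 23 peaks (13%), against 0.931% of the whole list. Within 10% of the median width were 3 of 23 (13%), against 23.9% of the list. These were the beta peaks of signal value 4.30, at 802 bp against 827 bp, and 7.26, at 1034 bp against 1096 bp. The third was the last gamma peak, 526 bp against 502 bp, the one peak wider than the median of its like.

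**Figure D2:**
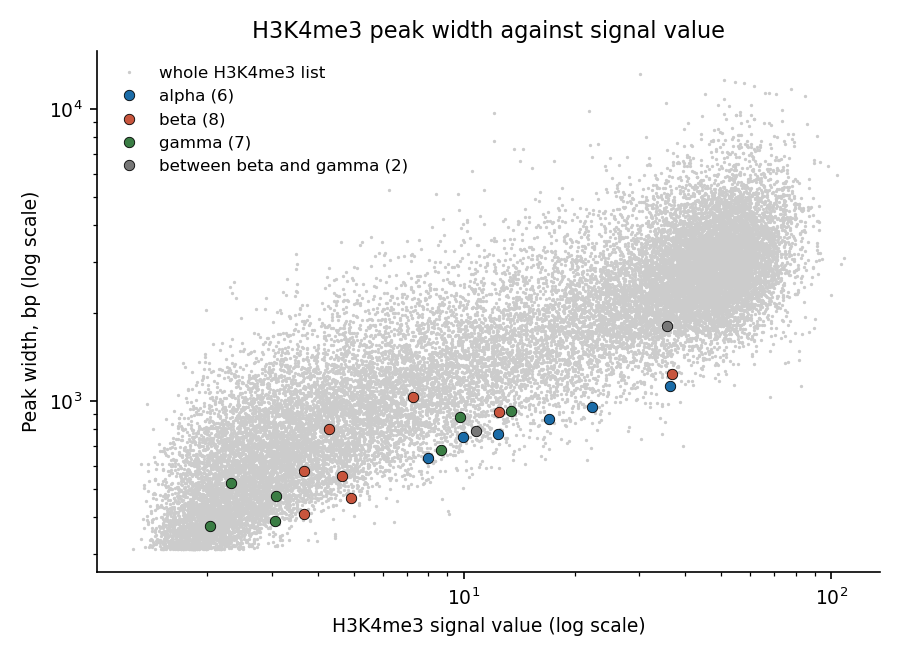
Peak width in bp against signal value for H3K4me3, both on log scales. Grey points are the whole list, and coloured points the 23 peaks of the interval by cluster. Most lie towards the lower edge of the cloud. Of the 23, 22 were under the median width of peaks of like signal and 19 were among the narrowest 25%.

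Acetylation accompanied a minority of these promoter marks. Of the 23 H3K4me3 peaks, 8 overlapped H3K27ac (34.8%, 95% Wilson interval 18.8 to 55.1), against 77.5% of the whole list. Within the clusters proper it was 6 of 21: 3 of 6 in alpha, 2 of 8 in beta and 1 of 7 in gamma. Both peaks between beta and gamma had it. No H3K27ac peak lay within 1000 bp of the other 15, since the count within that distance was also 8 of 23, against 78.6% of the list. Where 50% of the H3K4me3 peak had to be covered, 21.7% had H3K27ac, against 71.3% of the list. With only peaks of a −log10 q-value of 5 or more, 7 of 23 had it (30.4%), against 77.1% of the list. Wilson intervals cover counting error only and treat neighbouring peaks as independent.

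The H3K27ac peaks of alpha and beta had signal values of 2.30 to 10.1 and were 336 to 649 bp wide. In alpha they ran from 140174500 to 140174874 with a signal value of 2.35, from 140180670 to 140181228 with 7.28, and from 140213818 to 140214372 with 6.87. Each lay at one of the 3 strongest alpha H3K4me3 peaks. The H3K27ac peak of 2.35 had a −log10 q-value of 4.32, under the threshold of 5. The beta peaks ran from 140464229 to 140464564 (2.30) and from 140474134 to 140474782 (10.1), and each lay at one of the 2 strongest beta H3K4me3 peaks. The 13.4 peak of gamma, stronger than the first beta peak, had none.

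Between beta and gamma the picture differed. The H3K27ac peak from 140699804 to 140701063 had a signal value of 31.1, higher than 94.4% of its list and the highest of the interval. Its neighbour from 140705800 to 140706228 had 3.58. Near the end of gamma lay 4 more, from 140888055 to 140888736 (4.24), from 140889074 to 140889373 (2.16), from 140899027 to 140899475 (3.15) and from 140899641 to 140902902 (11.5). The last of these was the widest at 3262 bp, overlapped no H3K4me3 and had its summit past the end of the interval. DIAPH1 follows gamma in the gene order, and whether these peaks belong to it was not analysed here.

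Where acetylation was present it was mostly below the median for like H3K4me3 in the list, by differing amounts. Of the 8 H3K4me3 peaks with H3K27ac, 7 had an H3K27ac signal value below the median of list peaks with like H3K4me3 and any H3K27ac. At the strongest alpha peak it was 6.87 against a median of 19.3, and at the strongest beta peak 10.1 against 19.6. At the first alpha peak it was 2.35 against 11.2, at the second 7.28 against 9.31, and at the first beta peak 2.30 against 6.22. The weaker peak between beta and gamma had 3.58 against 7.51, and the last gamma peak 4.24 against 8.12. The exception was the strong peak between beta and gamma, at 31.1 against 18.9. A median splits the list peaks evenly, and the share of the whole list below such a median was not computed. Of the 8 overlapping H3K27ac peaks, 7 lay wholly inside the H3K4me3 peak, against 44.2% of overlapping H3K27ac peaks in the whole list. Their summits were 1 to 91 bp from the H3K4me3 summits with a median of 31 bp, against a median of 127 bp over the overlapping pairs of the list. Neither comparison was restricted to list peaks of like width, and the H3K4me3 peaks of the interval were mostly narrower. The overlapping peak contained the H3K4me3 summit in 8 of 8 cases, against 85.3% of pairs in the list, so 8 of 8 was near the list.

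**Figure D3:**
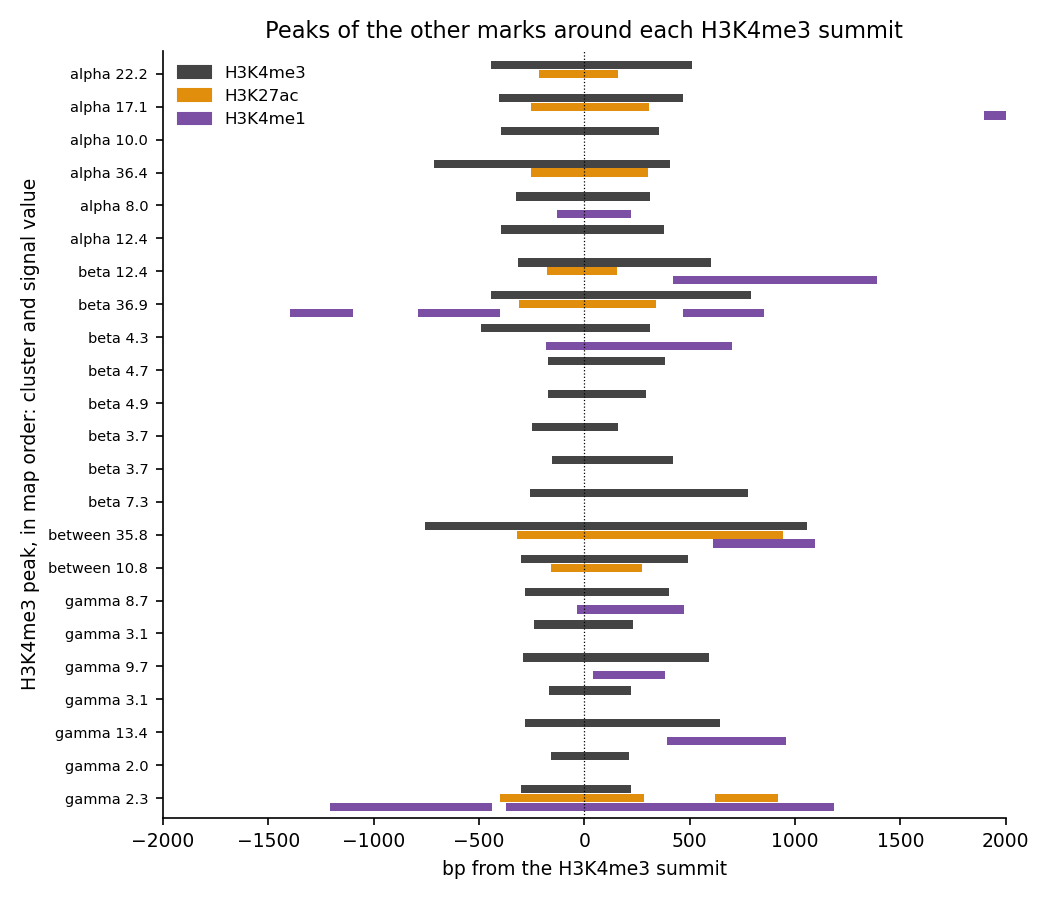
Extent of H3K4me3 (dark grey), H3K27ac (orange) and H3K4me1 (purple) peaks around each of the 23 H3K4me3 summits, in bp from the summit, in map order from the top, with cluster and H3K4me3 signal value on the left. H3K27ac bars sit at the summit in 8 rows, H3K4me1 bars overlap 9 H3K4me3 peaks, mostly on the right, and 10 rows have an H3K4me3 peak that overlaps neither other mark.

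H3K4me1, which lay on nearly every H3K4me3 peak of the list, was also sparse here. It overlapped 9 of 23 H3K4me3 peaks (39.1%, 22.2 to 59.2), against 92.7% of the whole list, and no further peak came within 1000 bp, against 95.5% of the list with H3K4me1 at that distance. By cluster it was 1 of 6 in alpha, 3 of 8 in beta and 4 of 7 in gamma. With only peaks of a −log10 q-value of 5 or more, it was 6 of 23 (26.1%), against 87.6% of the list. The overlapping H3K4me1 peak in alpha, at 3.49, did not reach that threshold. Nor did those at the gamma H3K4me3 peaks of signal value 8.65 (4.82) and 9.73 (3.29). The order of the clusters thus rests partly on weak H3K4me1 peaks. In alpha only the weakest H3K4me3 peak had H3K4me1, and for the strongest the nearest H3K4me1 peak was 6451 bp away. Where 50% of the H3K4me3 peak had to be covered, the share was 17.4%, against 53% of the list.

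Neither other mark overlapped 10 of the 23 H3K4me3 peaks (43.5%, 25.6 to 63.2), against 3.82% of the list. These were 2 peaks in alpha, 5 in beta and 3 in gamma. In beta they were the last 5 of the cluster, for which the nearest H3K27ac peak was 73943 to 106014 bp away. Both other marks overlapped 4 of 23 (17.4%), against 74% of the list. These 2 list shares cover peaks of every strength, including the strongest quartile by signal value, which holds none of the 23. They were not matched for strength, and no overlap share was matched for peak width.

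Strength was set beside these shares, since weaker H3K4me3 peaks overlap H3K27ac less often in the whole list. None of the 23 was in the strongest quartile of the list, 6 were in the second, 13 in the third and 4 in the weakest. In the second quartile (signal value 13.3 to 41.9) 5 of 6 overlapped H3K27ac, against 95.4% of the list's peaks there. In the third 2 of 13 did so, against 58.7%, and in the weakest 1 of 4, against 55.9%. For H3K4me1 the counts were 3 of 6 against 93.7%, 5 of 13 against 89.7% and 1 of 4 against 90.6%. The H3K27ac share in the second quartile was thus near that of the list, and the largest distance was in the third.

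**Figure D4:**
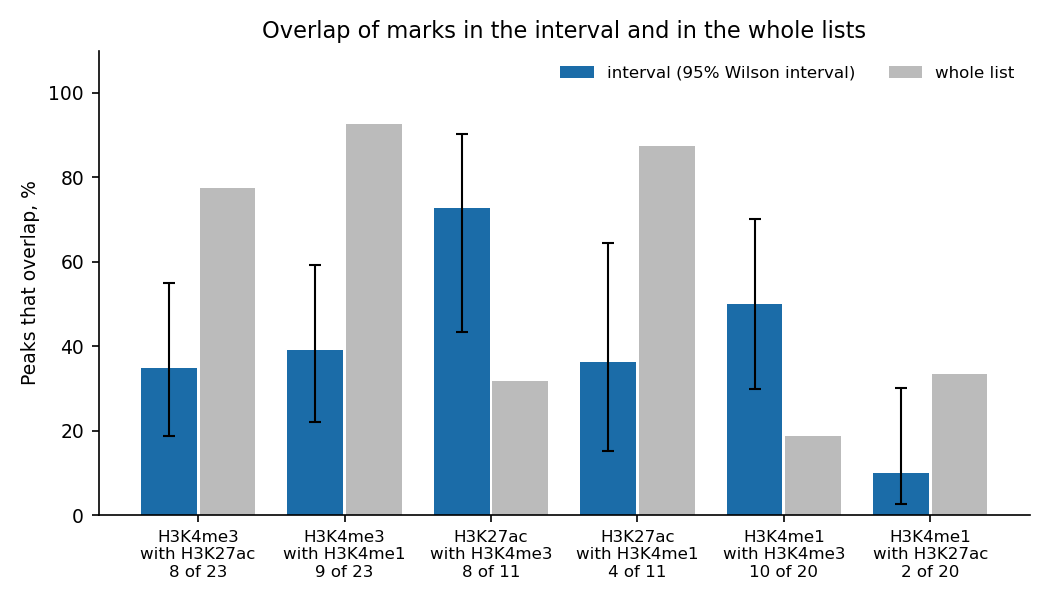
Percentage of peaks of one mark that overlap another, for the interval (blue, with 95% Wilson intervals for counting error and the counts under each pair) and for the whole list (grey). For H3K4me3 the interval has 34.8% with H3K27ac and 39.1% with H3K4me1, against 77.5% and 92.7% in the list.

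Seen from the other marks, most H3K27ac peaks lay at H3K4me3 and most H3K4me1 peaks away from H3K27ac. H3K27ac peaks overlapped H3K4me3 in 8 of 11 cases (72.7%, 43.4 to 90.3), against 31.7% of the H3K27ac list. They overlapped H3K4me1 in 4 of 11 (36.4%, 15.2 to 64.6), against 87.4%. H3K4me1 peaks overlapped H3K4me3 in 10 of 20 cases (50%, 29.9 to 70.1), against 18.9% of the H3K4me1 list, and H3K27ac in 2 of 20 (10%, 2.79 to 30.1), against 33.4%. With only peaks of a −log10 q-value of 5 or more, the latter became 22.2%, against 39.2% of the list, so that interval and list were closer. Where 50% of the H3K4me1 peak had to be covered, 30% overlapped H3K4me3, against 8.5% of the list. The other 10 overlapped neither mark, or 50%, against 61.6% of the list.

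The H3K4me1 peaks were weak, with signal values from 2.16 to 4.71 and a median of 2.92, against 3.42 in the whole list. A −log10 q-value of 5 or more was reached by 9 of the 20 (45%), against 68.6% of the H3K4me1 list. For H3K4me3 it was 23 of 23, against 96.3% of its list, and for H3K27ac 9 of 11, against 77.5%. The highest in alpha were 3.57 (140357967 to 140358383), 3.16 (140356393 to 140357133) and 2.92 (140182821 to 140183172). The first 2 of these, with a neighbour at 140358451 to 140358889 (2.70), formed a group of 3 within the part of alpha that had no H3K4me3, and overlapped neither other mark. Their −log10 q-values were 7.34, 4.97 and 3.03 in that order, so only the first reached 5. On either side of this group, 107 kb and 105 kb held no peak of any mark.

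In beta the highest H3K4me1 values were 4.45 (140529969 to 140530851), 3.33 (140464830 to 140465795) and 3.04 (140473655 to 140474044). Each overlapped an H3K4me3 peak. The strongest beta H3K4me3 peak was the only one of the interval that 2 H3K4me1 peaks overlapped, with summits 508 bp to the left and 645 bp to the right. The single H3K4me1 peak between beta and gamma ran from 140700733 to 140701217 at 2.44, on the right of the strong H3K4me3 peak there.

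In gamma the highest were 4.71 (140888083 to 140889639), which was also the widest of the interval at 1557 bp, then 3.59 (140767778 to 140768343) and 3.51 (140887247 to 140888017). The widest overlapped both other marks, at the place where the last gamma H3K4me3 peak had a signal value of only 2.32.

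H3K4me1 lay mostly to the right of H3K4me3. In 8 of 10 overlapping pairs the H3K4me1 summit had the higher coordinate, by 115 to 701 bp, against 49.9% of pairs in the whole list. All protocadherin promoters in the RefSeq table are on the plus strand, so that the higher coordinate is the side of the transcribed exon for these genes. The pairs at the stretch between beta and gamma and at the end of gamma are among the 8, and the strand of the genes there was not used. The side was looked at after the positions had been seen.

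The 3 clusters differed in how much each mark covered. H3K4me3 covered 2.04% of alpha, 3.00% of beta and 2.20% of gamma, with 2.40, 4.00 and 3.68 peaks per 100 kb. H3K27ac covered 0.596%, 0.492% and 0.943%, and the gamma value came from the right end alone. H3K4me1 covered 0.921%, 1.68% and 2.47%, or 0.167%, 1.12% and 1.69% at a −log10 q-value of 5 or more. H3K4me3 covered more than H3K4me1 in alpha and beta, and in gamma only at that threshold. With cluster bounds moved outward by 5000 bp, gamma held 5 H3K27ac summits in place of 3.

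The interval was set beside 4036 windows of its length along chromosomes 1 to 22 and X. Its 23 H3K4me3 peaks were reached by 4.21% of windows, whose median was 4. By length covered it stood out less: its 17957 bp of H3K4me3 was reached by 21.9% of windows, whose median was 6255 bp. Its 11 H3K27ac peaks were reached by 45.7%, with a median of 8, and its 20 H3K4me1 peaks by 57.1%, with a median of 29. Of the 170 windows with at least 23 H3K4me3 peaks, 0 had as few H3K27ac or H3K4me1 peaks. Those windows had 18 to 130 H3K27ac peaks (median 64) and 50 to 220 H3K4me1 peaks (median 146). The H3K4me3 length of the interval, 17957 bp, was also shorter than that of each of the 170, whose median was 54771 bp.

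The −log10 p-value of most H3K4me3 peaks was low for their signal value, most of all in alpha. It was below the median of list peaks of like signal for 20 of 23. The count was 11974 of 24481 in the whole list and 667 of 1115 on chromosome 5. The median ratio to that median was 0.662 in the interval, against 1.01 in the list and 0.939 on chromosome 5. An alpha and a beta peak of the same signal value, 12.4, had −log10 p-values of 290.0 and 603.0. The peaks of signal value 36.4 in alpha and 36.9 in beta had 1100 and 2170, and the peak of 35.8 between beta and gamma had 2938. As a ratio to the median of list peaks of like signal, the 6 alpha peaks ran from 0.355 to 0.662 with a median of 0.438. The medians were 0.725 in beta and 0.666 in gamma, with ranges of 0.494 to 1.31 and 0.491 to 1.08 that overlapped those of alpha. The 2 H3K4me3 peaks between beta and gamma had 0.808 and 1.07. In the whole list 14% of peaks had a ratio as low as the highest of alpha, and 15.8% did elsewhere on chromosome 5. That cut was taken from the alpha peaks themselves, so all of them reach it by definition and the shares test nothing. Beta peaks at 0.494, 0.542 and 0.619 and gamma peaks at 0.491, 0.505 and 0.648 also lay under it. The nearest H3K4me3 peaks outside the interval had ratios of 0.737 on the left and 1.08 on the right. For H3K27ac the ratio was 0.500 to 0.696 at the 3 alpha peaks. It was 0.696 to 0.856 at the 4 gamma peaks, including the peak with its summit past the end of the interval. The 2 beta peaks had 0.864 and 1.87, and the 2 between beta and gamma 0.981 and 0.983. For H3K4me1 the alpha peaks ran from 0.802 to 1 with a median of 0.871, near the 0.875 of gamma, and the beta median was 0.995. What sets the ratio was not tested.

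**Figure D5:**
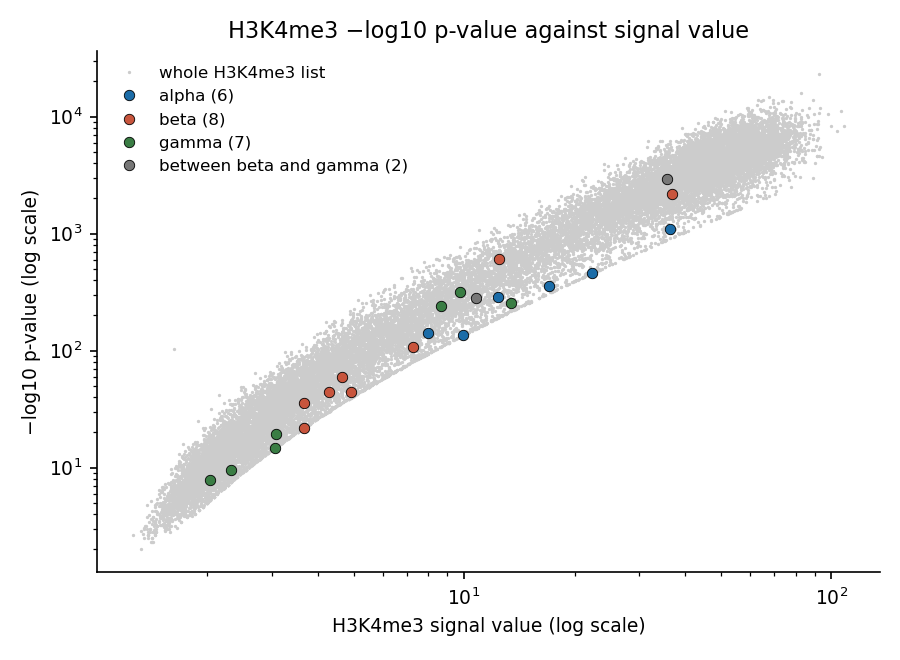
−log10 p-value against signal value of H3K4me3 peaks, both on log scales. Grey points are the whole list and coloured points the 23 peaks of the interval. The 6 alpha peaks lie towards the lower edge, with ratios of 0.355 to 0.662 to the median of peaks of like signal.

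The ends of the interval fell between peaks for H3K4me3. Just outside lay a peak from 140104643 to 140105886 (signal value 33.1) on the left and one from 140996374 to 140998761 (55.7) on the right, and just inside lay the first alpha peak (22.2) and the last gamma peak (2.32). For H3K27ac, the nearest outside were at 140104858 to 140105684 (8.86) and 140903602 to 140904355 (2.97), and the right end cut through the peak of 11.5. For H3K4me1 they were at 140108143 to 140108457 (2.76) and 140900477 to 140900913 (4.24), with 2.92 just inside on the left and 140891663 to 140891986 (3.02) on the right.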

How the data were processed

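The authors deposited 1 peak list per mark in the narrowPeak layout. The submitters' processing notes name MACS2 and the build hg19, without a role, version, threshold or use of the control. Each deposited list gives a signal value for every peak. What it is relative to was not given in the sources used here. The authors also deposited each p-value and q-value as −log10, a summit position and a score. The score was not used. Positions are GRCh37, counted from 1.

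An overlap was any common stretch of 1 bp or more. Peaks of like signal are those of the same list within 10% of a peak's signal value. Windows of the interval's length were tiled along each chromosome up to its last peak, unassembled stretches included. Shares have 95% Wilson intervals. Overlap code was tested on simulated data. Alternatives were a −log10 q-value of at least 5, summits inside the interval, joining within 1000 bp, 50% cover, shifted windows and shifted cluster bounds.

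All H3K4me3 and H3K27ac peaks were named, with the 3 highest H3K4me1 peaks per cluster and between clusters, the widest, those at the ends and the first and last gene of each cluster. The alpha H3K4me1 peak of 2.70 was added after its value was seen. The members, comparisons and lists were chosen with earlier results of these data known. Gene starts and liver marker genes were not compared with peaks, since no annotation of GRCh37 was used here. Depth is unknown. Software was Python 3.11.15, numpy 2.4.6, pandas 2.3.3, scipy 1.17.1 and matplotlib 3.10.9.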

Additional observations from a re-analysis of the deposited data

How the results depend on the processing

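Of 47 alternative values, 40 were within 1.5 times of the main value and 7 were further from it. Some of the 40 had little room to move. The H3K4me3 counts and cover at the q-value threshold followed from all 23 peaks passing it. The 95.8% of windows with fewer H3K4me3 peaks could not rise 1.5 times. The 40 of 47 is therefore no measure of how stable the results are. Keeping only peaks whose −log10 q-value reached 5 left all 23 H3K4me3 peaks (96.3% of that whole list pass), 9 of 11 for H3K27ac (81.8%, against 77.5%) and 9 of 20 for H3K4me1 (45%, against 68.6%). H3K4me1 peaks with H3K27ac then went from 10% to 22.2%, against 39.2% of the list. The share of windows with fewer H3K4me1 peaks was then 38.8%, against 42.9%. The same threshold gave an H3K27ac cover of 0.446% in alpha and 0.785% in gamma, and an H3K4me1 cover of 0.167%, 1.12% and 1.69% in alpha, beta and gamma. With 50% of the peak covered, 17.4% of H3K4me3 peaks overlapped H3K4me1, against 53% of the list, 21.7% overlapped H3K27ac, against 71.3%, and 30% of H3K4me1 peaks overlapped H3K4me3, against 8.5%. Moving cluster bounds outward by 5000 bp, chosen after seeing the data, gave 5 H3K27ac summits in gamma in place of 3. No paired analysis was possible because each mark has 1 pooled list, and leaving out a library was not possible for the same reason. Gene starts within 1000 bp of a peak were not run. Without depth, an absent peak means only that none was listed.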
